A study of Sus scrofa with 15 samples.

Results

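The genes described here encode 10 chains of interleukin receptors that natural killer (NK) cells use: IL2RA, IL2RB, IL2RG, IL7R, IL21R, IL12RB1, IL12RB2, IL18R1, IL18RAP and IL10RA. They were chosen by gene symbol, 10 of 29886 genes in the count table, and all 10 passed the filter on low counts that left 10939 genes for testing. Their transcripts were measured in 15 libraries, made from 3 NK cell populations of each of 5 pigs of 6 months. Blood CD8α high NK cells (conventional blood NK cells) came from peripheral blood mononuclear cells. Conventional liver NK cells (liver CD8α high) and liver resident NK cells (CD8α dim lrNK cells) came from the flushed liver of the same animals. No animal was treated, and every population was sorted as cells without CD3 and CD172a, split by their level of CD8α; the methods name no B cell antibody in that gate. Each library pools the sorted cells of 1 animal, so these are averages over a population.

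Interleukins are secreted proteins that carry signals between immune cells, and each acts on a cell only where the matching receptor chains are present. The receptors for IL-2, IL-15, IL-7 and IL-21 share the common γ chain and signal through Janus kinases and STAT factors, whereas the IL-18 receptor belongs to the IL-1 receptor family and signals through MyD88 and IRAK kinases. In NK cells IL-15 sustains survival, IL-12 and IL-18 together drive interferon-γ production, and IL-10 is mostly known as a cytokine that restrains inflammation.

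Library totals ran from 2003499 to 5680221 counts. Levels are given as CPM, counts scaled to a common library total after TMM (a normalisation that corrects that total for composition). The libraries read each transcript from its 3′ end, so a level stands for transcript ends and does not grow with transcript length. Differences were tested with the quasi-likelihood test of edgeR over the 10939 genes, and a gene was called at a Benjamini-Hochberg adjusted p under 0.05, below named the edgeR adjusted p. Summed NK marker levels were 6580 to 9967 CPM over all libraries. That sum pools markers that moved both ways. Of the 18, 7 were called as higher and 6 as lower in lrNK cells against blood, and 6 and 5 against liver CD8α high cells. For example, EOMES was at 677 CPM in lrNK and 39.5 in blood cells, and GNLY at 21.5 and 1438. CD8A, the gene behind the sort, was at 466 CPM in blood, 490 in liver CD8α high cells and 43.4 in lrNK cells. Transcripts of other cells were present too: 9 B and plasma cell markers summed to 65.8 to 199 CPM in blood, 28.8 to 84.6 in liver CD8α high and 496 to 1197 in lrNK libraries, and 1 of the 9 was at 0 in every library. In such sorted bulk samples, fewer cells of a type and less RNA per cell cannot be told apart.

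CD8α dim lrNK cells carried far more transcript of both IL-18 receptor chains, and less of the IL-10 receptor chain IL10RA, than either CD8α high population. Against blood NK cells, 3 of the 10 receptor genes were called: IL18R1 and IL18RAP higher, and IL10RA lower. Among all genes tested in that comparison 18.2% were called, 8.62% as higher and 9.6% as lower. Against liver CD8α high NK cells, 4 of the 10 were called, IL18R1 and IL18RAP as higher and IL10RA and IL12RB2 as lower, where 14.6% of all genes were called, 6.96% as higher and 7.68% as lower. Between the CD8α high cells of liver and blood, 0 of the 10 were called by edgeR, 0 by DESeq2, and 1 had an unadjusted p under 0.05. There 0.064% of all genes were called, and 549 of 10939 had an unadjusted p under 0.05. The median log2 fold change of the 10 genes was 0.53 in lrNK against blood, 0.85 in lrNK against liver CD8α high and 0.25 in liver CD8α high against blood, beside 0.01, 0.02 and -0.02 over all genes. These comparisons share libraries, so they are not independent of each other.

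**Figure D1:**
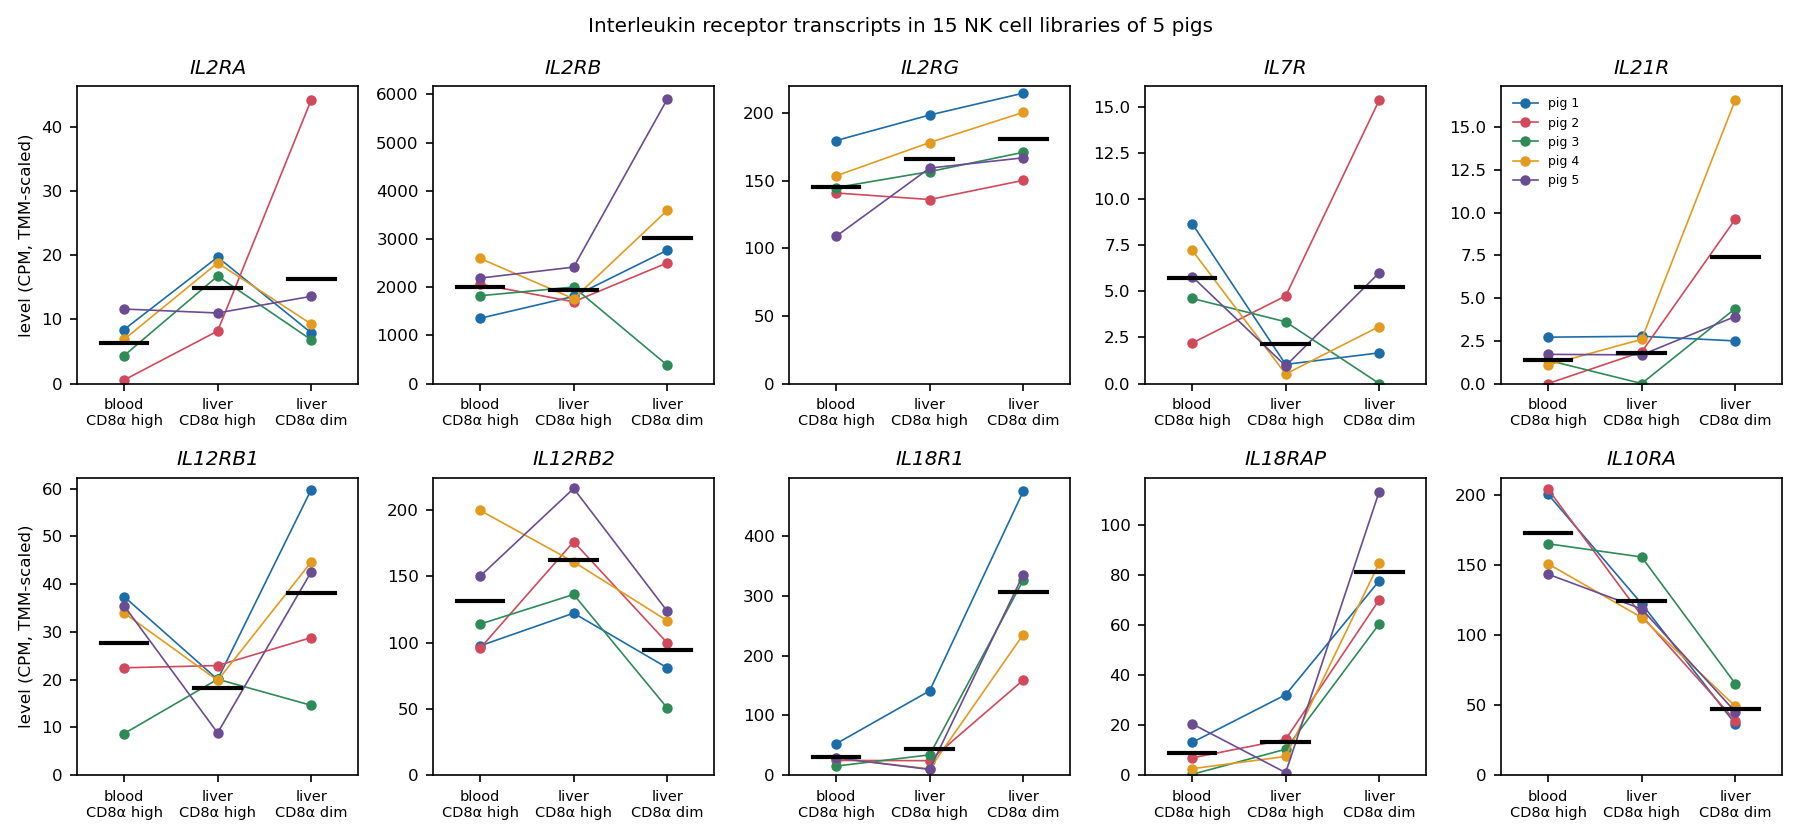
Level of each of the 10 receptor transcripts (CPM, TMM-scaled, linear axes from 0 that differ between panels) in the 15 libraries; points of 1 pig are joined by a line and black bars are means of 5 pigs. IL18R1 and IL18RAP were higher and IL10RA lower in every lrNK (liver CD8α dim) library than in any CD8α high library, whereas the populations overlapped for the other 7 genes. The share of all tested genes that separate in this way is not given here.

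IL18R1 encodes the chain that binds IL-18. Blood cells of pigs 1 to 5 held 52.3, 24.4, 14.9, 28.5 and 28.7 CPM of it. In liver CD8α high cells the same pigs gave 141, 24.0, 33.7, 10.2 and 9.31 CPM. The lrNK libraries gave 475, 159, 326, 235 and 335 CPM. The lowest lrNK library thus stood above the highest library of both other populations, and among the liver CD8α high libraries that of pig 1 stood far above the other 4. The mean rose from 29.8 ± 13.8 CPM (SD, n = 5) in blood to 306 ± 119 CPM in lrNK cells, with 43.6 ± 55.3 CPM in liver CD8α high cells. Its log2 fold change in lrNK against blood was 3.36 (SE 0.58, 10.3-fold, edgeR adjusted p = 0.000228), higher in 5 of 5 pigs. Against liver CD8α high cells it was 2.84 (SE 0.56, 7.14-fold, edgeR adjusted p = 0.00112), again higher in 5 of 5 pigs. Without the liver CD8α high library of pig 1, this second log2 fold change was 4.00. By mean level IL18R1 ranked 5137 of 10939 genes in blood, 4036 in liver CD8α high cells and 541 in lrNK cells.

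IL18RAP encodes the accessory chain that completes the signalling IL-18 receptor. Its level in blood was 13.0, 6.85, 0.271, 2.53 and 20.5 CPM in pigs 1 to 5, the third of these resting on 1 count. Liver CD8α high cells had 32.1, 14.2, 10.3, 7.41 and 0.955 CPM. Levels in lrNK cells were 77.7, 70.1, 60.4, 84.8 and 113 CPM. The lrNK libraries again lay above all others, and relative to the mean they differed less among themselves for this chain, with an SD of 20.1 CPM on a mean of 81.3, than they did for IL18R1. lrNK cells had a log2 fold change of 3.24 against blood (SE 0.68, 9.45-fold, edgeR adjusted p = 0.00154) and 2.67 against liver CD8α high cells (SE 0.65, 6.37-fold, edgeR adjusted p = 0.00688). Each rise held in 5 of 5 pigs. Without the liver CD8α high library of pig 1 the latter value was 3.31. Transcript ends of IL18R1 outnumbered those of IL18RAP in every library. The ratio of their counts ran from 1.40 to 55.0 in blood (median 4.02), from 1.37 to 9.75 in liver CD8α high (median 3.27) and from 2.27 to 6.11 in lrNK libraries (median 2.96), and these overlapping ranges were not tested.

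In the liver CD8α high population both IL-18 receptor chains were highest in pig 1, whose lrNK library also had the highest IL18R1. Against blood, liver CD8α high cells had a log2 fold change of 0.52 for IL18R1 (95% interval -0.62 to 1.66) and 0.57 for IL18RAP (-0.80 to 1.94), with an edgeR adjusted p of 1.00 for each. Without the library of pig 1 those values were -0.64 and -0.071.

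The genes of both chains lie next to each other in the pig genome assembly Sscrofa11.1. IL18RAP spans chr3:51762111-51794552 and IL18R1 chr3:51803383-51844758, with 8830 bases between them. The next gene on the far side of IL18R1 is IL1RL1 (chr3:51868549-51902454), which encodes ST2, the IL-33 receptor chain and another member of the IL-1 receptor family. IL1RL1 was at 0.884 ± 0.834 CPM (SD, n = 5) in blood, 2.83 ± 2.75 CPM in liver CD8α high and 39.9 ± 19.9 CPM in lrNK cells. It rose by a log2 fold change of 5.37 against blood (SE 0.81, edgeR adjusted p = 5.41e-05) and of 3.87 against liver CD8α high cells (SE 0.72, edgeR adjusted p = 0.000653), and its lrNK libraries overlapped neither group. Of the 6 genes of the table within 200 kb of IL18R1, only IL1RL1 was tested besides both IL-18 receptor genes, while SLC9A2, SLC9A4 and IL1RL2 had 0 counts in all 15 libraries. The neighbourhood was looked at after the values of the receptor genes were seen.

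**Figure D2:**
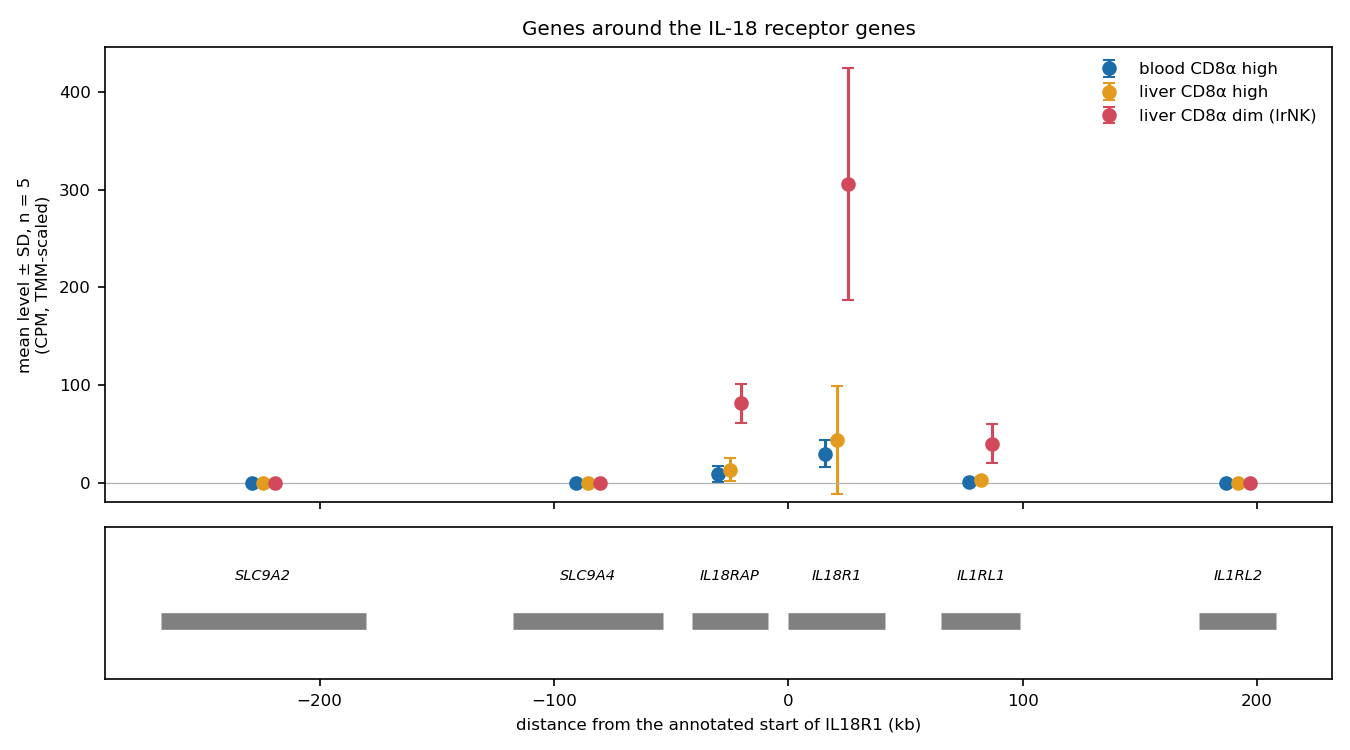
Mean level ± SD over 5 pigs (CPM, TMM-scaled) of the 6 genes within 200 kb of IL18R1, plotted at the middle of each gene by its distance in kb from the annotated start of IL18R1 (points of the 3 populations are shifted slightly apart), with gene spans below. IL18RAP, IL18R1 and IL1RL1 were highest in lrNK cells, at 81.3, 306 and 39.9 CPM, and the other 3 genes were at 0.

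IL10RA, the ligand-binding chain of the IL-10 receptor (chr9:45310527-45324557), showed the opposite order and the smallest standard errors among the called receptor genes. Blood libraries of pigs 1 to 5 had 200, 204, 165, 151 and 143 CPM. The liver CD8α high libraries had 122, 114, 156, 112 and 118 CPM. The lrNK libraries had 36.5, 38.9, 65.3, 49.1 and 45.2 CPM. Every lrNK library lay below every CD8α high library, and the liver CD8α high libraries overlapped blood only through that of pig 3. Against blood, IL10RA in lrNK cells fell by 1.88 on the log2 scale (SE 0.19, 3.68-fold lower, edgeR adjusted p = 2.27e-07), lower in 5 of 5 pigs. Relative to liver CD8α high cells it fell by 1.40 (SE 0.18, 2.65-fold lower, edgeR adjusted p = 1.29e-05), lower in 5 of 5 pigs. Liver CD8α high cells lay below blood in 5 of 5 pigs, with a log2 fold change of -0.47 (95% interval -0.84 to -0.10) that was not called (unadjusted p = 0.0148, edgeR adjusted p = 0.791). The partner chain of the receptor, IL10RB, had at most 10 counts in any library and was not tested. A long non-coding RNA gene that lies 1183 bases from IL10RA, LOC100622439, was also lower in lrNK cells, at 6.02 ± 8.06 CPM (SD, n = 5) against 51.8 ± 7.40 in blood and 39.9 ± 8.60 in liver CD8α high cells. The strand setting of the counting is not given in the sources used here.

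IL12RB2, the signalling chain of the IL-12 receptor that carries the STAT4 docking site (chr6:145210251-145292399), was lower in lrNK than in liver CD8α high cells. Its level in blood was 97.6, 95.7, 114, 200 and 150 CPM in pigs 1 to 5. Liver CD8α high cells held 122, 176, 136, 161 and 216 CPM. The levels in lrNK cells were 81.0, 99.8, 50.7, 117 and 124 CPM. Each pig had less IL12RB2 in its lrNK than in its liver CD8α high cells, although the groups overlapped slightly, since the highest lrNK library was above the lowest liver CD8α high library. This difference had a log2 fold change of -0.78 (SE 0.24, 1.72-fold lower, edgeR adjusted p = 0.0353). This call was lost in 10 of 32 alternative settings. Each of them left out a pig (1, 2, 3 or 5) or a library. The libraries were of lrNK (pig 1, 2 or 3) or liver CD8α high cells (pig 2, 4 or 5). The log2 fold change in these settings was -0.81 to -0.62. Their highest edgeR adjusted p was 0.113, without the liver CD8α high library of pig 5. With the pig as a replicate block the edgeR adjusted p was 0.00519. Against blood the log2 fold change was -0.47 (95% interval -0.98 to 0.04, edgeR adjusted p = 0.210), lower in 4 of 5 pigs.

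IL12RB1, the other IL-12 receptor chain, which is also part of the IL-23 receptor (chr2:59707958-59736282), had lower levels. They were 37.4, 22.5, 8.68, 34.0 and 35.5 CPM in blood of pigs 1 to 5. Those in liver CD8α high cells were 20.0, 22.9, 20.1, 19.8 and 8.84 CPM. Those in lrNK cells were 59.8, 28.8, 14.6, 44.7 and 42.6 CPM. Pig 3 had the lowest lrNK and the lowest blood level, and the populations overlapped. lrNK cells were above blood in 5 of 5 pigs, with a log2 fold change of 0.47 (95% interval -0.33 to 1.27, edgeR adjusted p = 0.459). The value against liver CD8α high cells was 1.06 (95% interval 0.25 to 1.87, edgeR adjusted p = 0.0753), and without the lrNK library of pig 3 it was 1.27 (edgeR adjusted p = 0.0153). It was also called without the blood library of pig 3, which changes the shared spread (1.06, edgeR adjusted p = 0.0405). The ratio of IL12RB2 to IL12RB1 counts ran from 2.61 to 13.1 in blood (median 4.26), from 6.10 to 24.5 in liver CD8α high (median 7.68) and from 1.35 to 3.47 in lrNK libraries (median 2.91). The difference between these ratios was not tested.

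**Figure D3:**
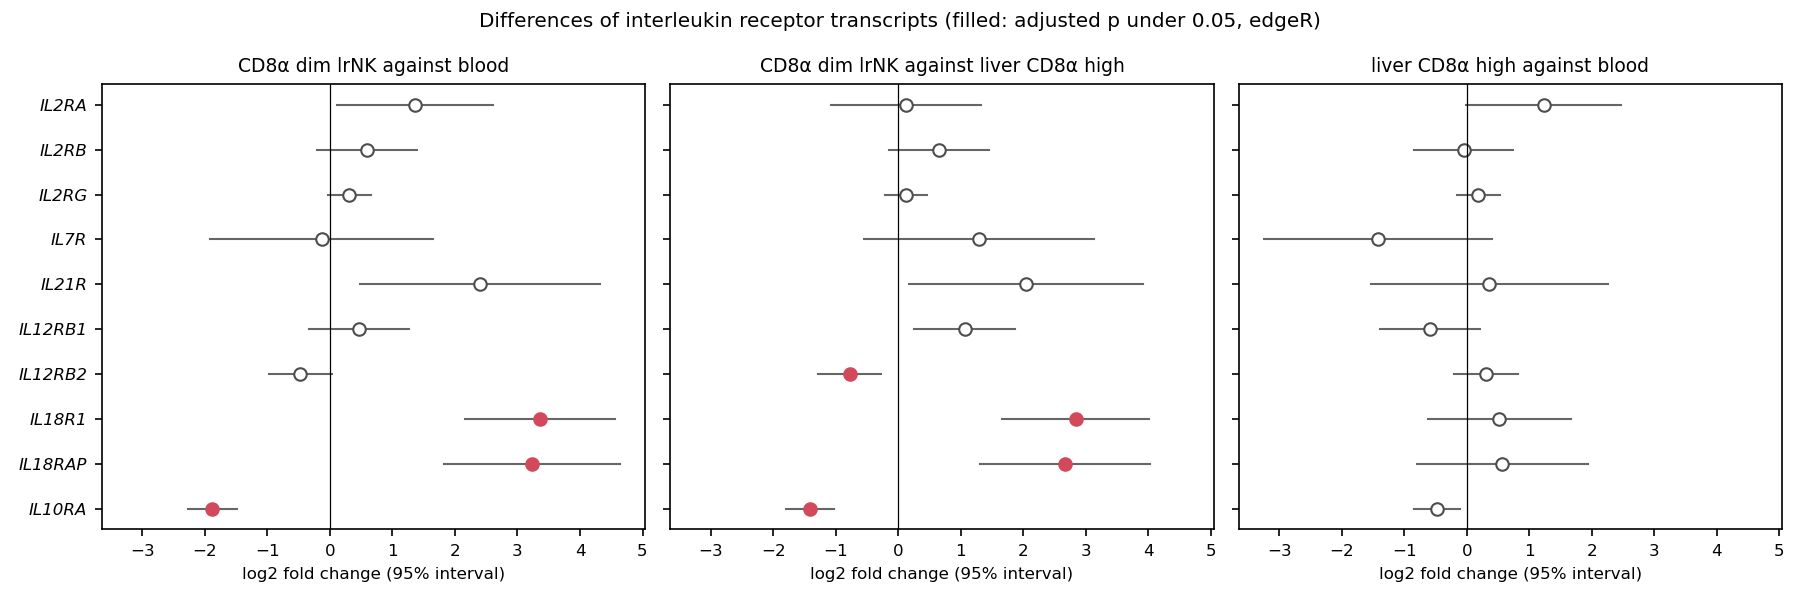
Log2 fold change of the 10 receptor genes (points) with 95% intervals (lines) in the 3 comparisons; filled points have an edgeR adjusted p under 0.05. IL18R1, IL18RAP and IL10RA were called in both comparisons with lrNK cells, IL12RB2 only against liver CD8α high cells, and none between liver CD8α high and blood.

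IL2RB, the β chain through which NK cells receive both IL-2 and IL-15 (chr5:10610094-10650315), was the most abundant receptor transcript of the 10 on the scale of transcript ends. It ranked 44 of 10939 genes in blood, 43 in liver CD8α high and 24 in lrNK cells by mean CPM. In blood it was at 1354, 2062, 1822, 2596 and 2188 CPM in pigs 1 to 5. Levels in liver CD8α high cells were 1807, 1697, 2003, 1760 and 2417 CPM. The lrNK levels were 2767, 2503, 381, 3594 and 5900 CPM. The lrNK libraries thus spread far wider than the others, with that of pig 3 the lowest and that of pig 5 the highest of all 15. For lrNK cells the log2 fold change was 0.60 against blood (SE 0.38, edgeR adjusted p = 0.330) and 0.65 against liver CD8α high cells (SE 0.38, edgeR adjusted p = 0.320), higher in 4 of 5 pigs in both. These results turned on the lrNK library of pig 3: without it the values were 0.90 (edgeR adjusted p = 0.00405) and 0.93 (edgeR adjusted p = 0.00369). Liver CD8α high and blood cells differed by -0.05 (95% interval -0.84 to 0.75).

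IL2RG, the common γ chain shared by the receptors for IL-2, IL-15, IL-7 and IL-21 (chrX:57143568-57151242), had the smallest standard errors of the 10 genes. It was at 180, 141, 145, 154 and 109 CPM in blood, and at 199, 136, 157, 178 and 159 CPM in liver CD8α high cells of pigs 1 to 5. lrNK cells had 215, 150, 171, 201 and 167 CPM. All 3 populations overlapped, and within each pig the lrNK library was the highest. lrNK cells differed by a log2 fold change of 0.31 against blood (95% interval -0.03 to 0.65, edgeR adjusted p = 0.215) and 0.12 against liver CD8α high cells (95% interval -0.21 to 0.46, edgeR adjusted p = 0.713), higher in 5 of 5 pigs in each. These intervals leave room for a rise of at most 0.65 on the log2 scale. IL2RG shares 359 bases with the neighbouring gene MED12, so counts in that stretch could belong to either gene.

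IL2RA, the α chain that raises the affinity for IL-2 and appears on activated cells (chr10:64948149-65001320), was low. In blood it was at 8.40, 0.548, 4.34, 6.87 and 11.6 CPM in pigs 1 to 5. Liver CD8α high libraries gave 19.7, 8.17, 16.7, 18.8 and 11.0 CPM. The lrNK libraries were at 7.89, 44.2, 6.82, 9.27 and 13.6 CPM. The lrNK library of pig 2 stood apart from the other 4 of its population, which lay within the range of the CD8α high libraries. The log2 fold change of lrNK cells against blood was 1.36 (95% interval 0.11 to 2.60, edgeR adjusted p = 0.130) and that of liver CD8α high cells against blood was 1.23 (95% interval -0.0045 to 2.47, edgeR adjusted p = 0.993). Between both liver populations it was 0.13 (95% interval -1.07 to 1.33), and without the lrNK library of pig 2 it was -0.65. Without that library the value of lrNK cells against blood was 0.59 (edgeR adjusted p = 0.550).

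IL7R, the α chain of the IL-7 receptor (chr16:21300141-21330156), and IL21R, the ligand-binding chain of the IL-21 receptor (chr3:19447488-19489201), were the scarcest. IL7R was at 2.19 to 8.67 CPM in blood, 0.517 to 4.75 in liver CD8α high and 0 to 15.4 in lrNK cells, with medians of 5.80, 1.04 and 3.09 CPM and 0 to 32 counts per library. The highest lrNK level was that of pig 2, and the lrNK library of pig 3 had 0 counts, which allows up to 3 counts by counting error. No IL7R difference was called, and the log2 fold change of lrNK against blood was -0.13 with a 95% interval of -1.91 to 1.65. A long non-coding RNA gene, LOC106508147, lies within IL7R over 18947 bases and was higher in lrNK than in liver CD8α high cells (log2 fold change 4.95, SE 1.15, edgeR adjusted p = 0.00472), where 4 of 5 libraries were at 0. Reads of this pair cannot be told apart without the strand setting.

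IL21R was at 2.71, 0, 1.36, 1.08 and 1.71 CPM in blood of pigs 1 to 5, and at 2.76, 1.85, 0, 2.59 and 1.67 CPM in liver CD8α high cells. In lrNK cells the levels were 2.49, 9.60, 4.38, 16.6 and 3.92 CPM. In 4 of 5 pigs the lrNK library was higher than both others, and the highest was that of pig 4, with 59 counts. Against blood the log2 fold change was 2.40 (95% interval 0.48 to 4.32), a value that missed the threshold with edgeR (adjusted p = 0.0773) and passed it with DESeq2 (2.44, adjusted p = 0.0290). It was 2.04 against liver CD8α high cells (95% interval 0.17 to 3.91, edgeR adjusted p = 0.155).

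Other transcripts moved with the lrNK population. Of the 8 B and plasma cell markers tested, 7 were called as higher in lrNK cells in each comparison, and the B marker sums were highest in the lrNK libraries of pigs 2 (1197 CPM) and 4 (1191 CPM), the same libraries that had the lowest IL18R1 and the highest IL21R levels of the lrNK population. Both libraries were left out in a further fit, chosen after seeing the data for their B marker sums. Since they also held the lowest IL18R1 and the highest IL21R levels, the direction in which those values moved was fixed by the choice. They are left out here, and IL18RAP, IL10RA and IL12RB2 are given. The log2 fold change against blood was 3.29 for IL18RAP (edgeR adjusted p = 0.00553) and -1.82 for IL10RA. Relative to liver CD8α high cells the values were 2.71 and -1.35, and -0.93 for IL12RB2 (edgeR adjusted p = 0.0431). Both libraries left out held more IL12RB2 (99.8 and 117 CPM) than the lrNK mean of 94.4 CPM, so its larger fall was also fixed by the choice. The lrNK libraries kept still had B marker sums of 496 to 721 CPM, above those of every CD8α high library. This fit therefore cannot show what the B cell transcripts contribute. Summed T cell markers were lower in lrNK (113 to 602 CPM) than in blood (642 to 1206 CPM) and in liver CD8α high libraries (715 to 1084 CPM), almost all of it CD3G, the only one of the 4 tested T cell markers that was called without a block (log2 fold change -1.58 against blood and -1.51 against liver CD8α high). CD3E was at 0 in 3 lrNK libraries and was called as lower against liver CD8α high cells with the pig as a replicate block (edgeR adjusted p = 0.0418), whereas CD3D (8.43 CPM in lrNK, 3.78 in blood) and FOXP3 (6.68 and 3.48 CPM) had higher means in lrNK cells than in blood and were not called. Summed monocyte and macrophage markers were 2.44 to 31.2 CPM in lrNK, 0.717 to 5.02 in liver CD8α high and 0.341 to 8.14 in blood libraries, and the 1 tested, LYZ, was called as higher against liver CD8α high cells (log2 fold change 4.57, edgeR adjusted p = 0.0272), but not with the pig as a replicate block (edgeR adjusted p = 0.0512). Summed dendritic cell markers were 27.0 to 87.4 CPM in lrNK, 5.58 to 30.7 in liver CD8α high and 12.7 to 43.7 in blood libraries. Of the 3 tested, XCR1 (8.63, 0.069 and 0.054 CPM in the same order) and TCF4 (48.5, 4.29 and 8.12 CPM) were called as higher in lrNK cells in both comparisons, and CADM1 (2.78 CPM in lrNK, 15.1 in blood) was not called. Hepatocyte markers summed to 4.80 to 29.7 CPM in lrNK, 1.55 to 4.83 in liver CD8α high and 0 to 3.26 in blood libraries, and the 1 tested, HP, was called as higher in lrNK cells against blood with DESeq2 (adjusted p = 0.0473) and with the pig as a replicate block (edgeR adjusted p = 0.0325) but not without the block (edgeR adjusted p = 0.0914). Endothelial and stellate markers summed to 3.09 to 36.0 CPM in lrNK, 2.64 to 8.63 in liver CD8α high and 1.92 to 14.1 in blood libraries. The helper-like innate lymphoid cell list, which holds IL1RL1, summed to 235 to 399 CPM in lrNK, 167 to 285 in liver CD8α high and 208 to 283 in blood cells. Much of it came from GATA3 (259, 201 and 225 CPM in the same order). Of the 5 tested, 2 were called as higher in each lrNK comparison (3 with DESeq2 against liver CD8α high cells). Against blood these were IL1RL1 and TMEM176B (edgeR adjusted p = 0.0220). The summed level of handling and immediate early genes was 1790 to 3454 CPM in both liver populations and 970 to 1247 CPM in blood, much of it from HSPA8, a heat shock protein gene (1380 CPM in lrNK, 1413 in liver CD8α high and 636 in blood cells). Of the 12 of these genes tested, 5 were called as higher and 2 as lower (NR4A3 and JUNB) in lrNK cells against blood, 0 as higher and 2 as lower against liver CD8α high cells, and 3 as higher in liver CD8α high cells against blood (4 with DESeq2). HSPH1, higher in lrNK cells than in blood in 5 of 5 pigs, was called with the pig as a replicate block (edgeR adjusted p = 0.0401) and with DESeq2 (adjusted p = 0.0499). Without the block it was not called (edgeR adjusted p = 0.0821). What these transcripts contribute to the receptor levels was not tested.

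By the rule for similar patterns, the genes whose centred log2 CPM differed least from that of a called receptor over the 15 libraries were listed, 2 for each. For IL18R1 they were LOC110255822 (root mean square difference 0.54) and NCR1, which encodes the activating receptor NKp46 (0.54). For IL18RAP they were LOC100154053 (0.62) and KLRF1, which encodes the receptor NKp80 (0.77). For IL10RA they were FAM43A (0.23) and VAMP5 (0.25), and for IL12RB2 they were ATF1 (0.19) and CHSY1 (0.22). NCR1 rose from 50.8 ± 29.4 CPM (SD, n = 5) in blood to 282 ± 83.3 CPM in lrNK cells, and its SD of 63.9 CPM on a mean of 54.7 in liver CD8α high cells stood beside an SD of 55.3 on a mean of 43.6 for IL18R1 there. This likeness follows from the rule, which picked NCR1 for its closeness to IL18R1 in these same libraries.

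Among 15 other cytokine receptor chains that were tested, 6 were called as higher in lrNK cells against blood and 0 as lower, beside 8.62% and 9.6% of all genes tested. IL4R was called as lower with DESeq2 and with the pig as a replicate block. The median log2 fold change of the 15 was 0.08 beside 0.01 over all genes. The 6 higher ones were IL1RL1, CSF2RB (the β chain shared by the IL-3, IL-5 and GM-CSF receptors), IFNAR1 and IFNAR2 (both chains of the type I interferon receptor), IFNGR1 (interferon-γ receptor) and IL6ST (gp130, shared by the IL-6 family). IFNAR2 rose from 64.9 to 203 CPM in lrNK cells (log2 fold change 1.64, SE 0.24, edgeR adjusted p = 3.11e-05), and CSF2RB from 0.688 to 10.7 CPM (log2 fold change 3.91, SE 1.08, edgeR adjusted p = 0.0134). Against liver CD8α high cells, IL1RL1, CSF2RB, IFNAR1 and IFNAR2 rose, and IL4R, the IL-4 receptor α chain, fell by 0.72 on the log2 scale (edgeR adjusted p = 0.00851). With the pig as a replicate block, IL6ST was also called there (edgeR adjusted p = 0.00384 with the block and 0.0833 without it, higher in 5 of 5 pigs), as was IL4R against blood (0.0492 with the block and 0.0582 without it, lower in 4 of 5 pigs). IL15RA, which presents IL-15 to the β chain, was at 4.47 CPM in lrNK, 5.07 in liver CD8α high and 1.35 in blood cells, and it was not called in any comparison. Of the 3 ligand-side genes tested, only IL7 was called, at 14.0 CPM in lrNK cells against 0.829 in blood (log2 fold change 4.01, edgeR adjusted p = 0.0169) and 0.925 in liver CD8α high cells (3.92, edgeR adjusted p = 0.0219). IL18BP, the soluble inhibitor of IL-18, had a log2 fold change of 0.39 against blood and 0.55 against liver CD8α high cells and was not called.

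Of 15 tested kinases, STAT factors and adaptors listed below these receptors, 2 were called as higher and 3 as lower in each lrNK comparison. Their median log2 fold changes were -0.15 against blood and 0.05 against liver CD8α high. Over all genes tested, 8.62% were called as higher and 9.6% as lower against blood, and 6.96% and 7.68% against liver CD8α high. JAK1, the kinase that IL2RB and IL10RA bind, rose from 1435 CPM in blood to 3617 in lrNK cells (log2 fold change 1.33, SE 0.23, edgeR adjusted p = 0.000265). STAT2, which transmits type I interferon signals, also rose against blood, by a log2 fold change of 1.16. STAT5B, which acts below IL-2 and IL-15, fell by 0.68 on the log2 scale. On the MyD88 side IRAK2 fell by 0.66, and IRAK3, an inhibitor of that pathway, fell by 2.38. The same 5 genes were called against liver CD8α high cells, where IRAK2 fell by 1.04, IRAK3 fell by 2.18 and STAT5B fell by 0.46. STAT4, the factor below IL-12, had a log2 fold change of -0.31 against blood (edgeR adjusted p = 0.358) and -0.54 against liver CD8α high cells (edgeR adjusted p = 0.0999). MYD88 was listed with 0 counts in all 15 libraries.

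Of 10 tested feedback genes and targets of the receptors, 3 were called as higher and 2 as lower in lrNK cells against blood, with a median log2 fold change of 0.48. Over all genes tested, 8.62% were called as higher and 9.6% as lower there. The survival gene MCL1 rose by 1.07, the kinase gene PIM2 by 1.35 and PRDM1, which encodes the repressor Blimp-1, by 0.52, whereas SOCS2, a brake on cytokine signalling, fell by 1.71 and PIM1 fell by 1.44. The call of PIM1 was lost with the pig as a replicate block (log2 fold change -1.37, edgeR adjusted p = 0.0550) and with DESeq2 (-1.44, adjusted p = 0.0739). SOCS1 was called as lower with the block (edgeR adjusted p = 0.0262 with it and 0.263 without it, lower in 5 of 5 pigs). Against liver CD8α high cells, where the median was 0.01, MCL1 and PIM2 rose, and SOCS2 fell by 2.14 and SOCS1 fell by 1.59. PIM1 was called there with the block (edgeR adjusted p = 0.0451 with it and 0.0548 without it, lower in 5 of 5 pigs). IFNG, the interferon-γ gene, was at 1.29 CPM in lrNK, 6.40 in liver CD8α high and 2.45 in blood cells and was not called. Between liver CD8α high and blood cells, 0 of the 43 tested genes of these 4 lists were called by edgeR and 0 by DESeq2, and 2 had an unadjusted p under 0.05. Over all 10939 genes, 549 had an unadjusted p under 0.05 there.

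**Figure D4:**
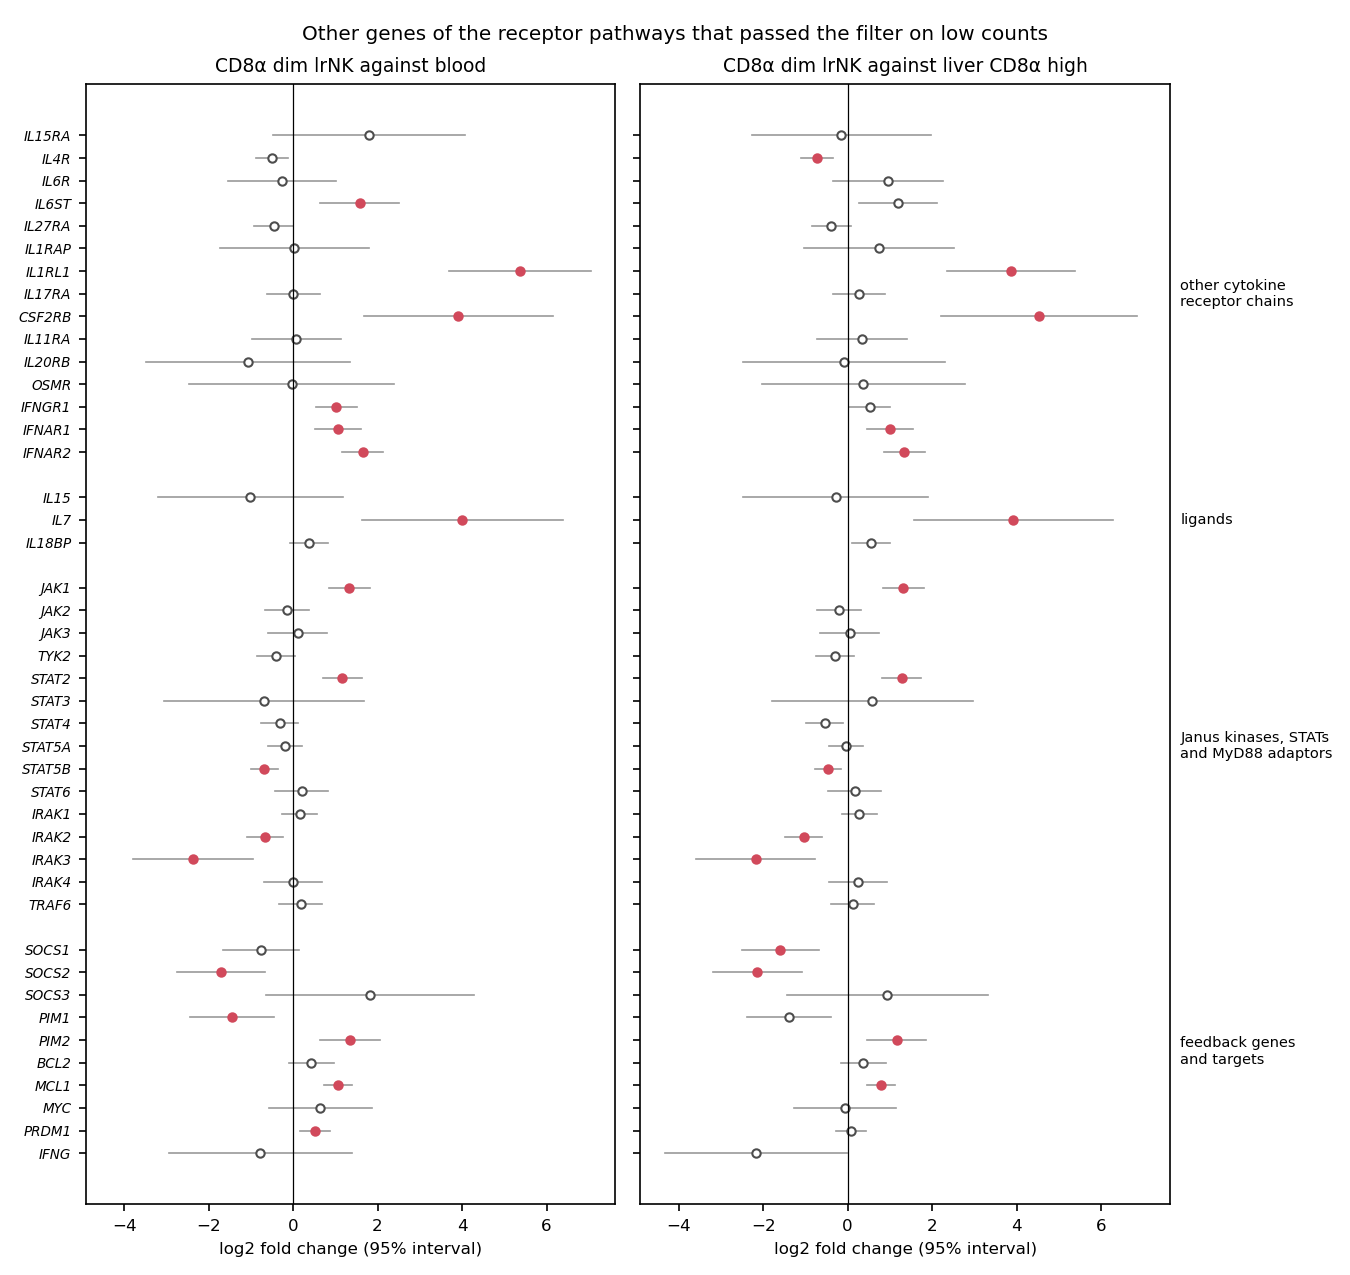
Log2 fold changes (points) with 95% intervals (lines) of the other receptor chains, ligand-side genes, kinases, STAT factors and adaptors, and feedback genes and targets that were tested, in lrNK cells against blood (left) and against liver CD8α high cells (right); filled points have an edgeR adjusted p under 0.05. In both comparisons IL1RL1, CSF2RB, IFNAR1, IFNAR2, IL7, JAK1, STAT2, PIM2 and MCL1 rose, and STAT5B, IRAK2, IRAK3 and SOCS2 fell.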

How the data were processed

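RNA of 3 sorted NK cell populations of 5 pigs was made into 15 QuantSeq 3′ libraries. The authors trimmed the reads with QuasR, aligned them with HISAT2 (through Rhisat2) to Sscrofa11.1 and deposited raw counts, whole numbers of reads per gene and library. The counting tool, its annotation and strand setting, and the HISAT2 version are not given in the sources used here, so counts of overlapping genes are uncertain. Library totals were 2003499 to 5680221 (median 3686363), which limits precision for genes with few counts. No pair of libraries of 1 population had counts within sampling noise of each other (chi-square per degree of freedom 9.41 to 46.7 over 30 pairs), so all 15 were counted separately; this check cannot show whether a sample was prepared more than once.

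The test was that of edgeR 4.0.16 in R 4.3.3 (TMM, filterByExpr by population, quasi-likelihood test, all 15 libraries in a single fit, Benjamini-Hochberg adjustment over 10939 genes). Standard errors are the log2 fold change divided by the square root of F. DESeq2 1.42.0, other scalings and filters, the pig as a replicate block, robust dispersion, other thresholds, fits of 2 populations and leaving out pigs or libraries were alternatives. The scripts were tested on simulated data. Libraries are paired by pig, as the labels and the methods say: same-pig deviations from population means had a mean correlation of 0.107 (-0.02 to 0.19 over 15 pairs, 8 above 0.1), and deviations between pigs -0.03. The labels give no batch. The receptor genes and all gene lists were chosen with earlier results of these data known. Genes outside the receptor set are named where they were called or are main partners, and the 2 most similar genes by centred log2 CPM (prior count of 2). Coordinates come from a RefSeq gene table of Sscrofa11.1, in which all 10 receptor genes matched. The table gives no strand and no sequences were used. Plots were made with matplotlib 3.10.9 (Python 3.11.15). The results of some genes are not reported here.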

Additional observations from a re-analysis of the deposited data

Results flagged for a closer look

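In 4 of the 30 groups of 5 libraries (10 genes in 3 populations), 1 library stood apart from the other 4 by Dixon's test, where chance gives about 5% of groups. IL2RA in the lrNK library of pig 2 was at 44.2 CPM (92 counts), with the others at 6.82 to 13.6. IL12RB1 in the liver CD8α high library of pig 5 was at 8.84 CPM (37 counts), with the others at 19.8 to 22.9. IL18R1 in the liver CD8α high library of pig 1 was at 141 CPM (408 counts), with the others at 9.31 to 33.7. IL10RA in the liver CD8α high library of pig 3 was at 156 CPM (558 counts), with the others at 112 to 122.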

How the results depend on the processing

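IL18R1, IL18RAP and IL10RA kept their direction and their call in both lrNK comparisons under all 32 settings run for each. Their log2 fold changes ranged from 3.16 to 3.67, from 2.92 to 3.82 and from -2.04 to -1.73 against blood, and from 2.53 to 4.00, from 2.21 to 3.33 and from -1.54 to -1.32 against liver CD8α high cells. With the pig as a replicate block, edgeR called the same numbers of receptor genes, 3, 4 and 0, and the block changed no call among them. The log2 fold change of IL2RA in lrNK against liver CD8α high cells turned to -0.022 with the replicate block and to -0.013 in DESeq2 with the block. It was -0.64 without the lrNK libraries of pigs 2 and 4. Since that of pig 2 held the highest IL2RA level (44.2 CPM), this direction was fixed by the choice of libraries. When a pig or library was left out, the IL2RA value ranged from -0.81 to 0.42. Leaving out a pig or library also moved IL7R in lrNK against blood from -1.24 to 0.32, and in liver CD8α high against blood IL18R1 from -0.64 to 0.84, IL18RAP from -0.071 to 1.48 and IL2RB from -0.15 to 0.094. None of these values was called.

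Over all genes, liver CD8α high against blood gave 7 calls, but 22 with DESeq2, 175 with DESeq2 and the replicate block, 18 without a filter on low counts, 16 in a fit of only these populations, 4 with robust dispersion, 0 at an adjusted p under 0.01, and 0 to 12 when a pig or library was left out. At an adjusted p under 0.01 the lrNK comparisons gave 1199 calls against blood and 947 against liver CD8α high cells. Leaving out a pig or library gave 1051 to 1764 calls in the latter. Why these counts moved was not tested, apart from the stricter threshold. Low counts limit IL7R and IL21R, which had 0 to 32 and 0 to 59 counts per library.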
